A study of Mus musculus with 4 samples.

Results

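The complement genes C1qa, C1qb, C1qc, C3, C4b, C3ar1, C5ar1, Itgam and Itgb2 were followed in RNA-seq counts of sorted mouse spinal cord cells. They were the 9 rows, of 42458 in the count table, whose name equals one of these symbols. Each of 4 C57BL6 mice gave 1 library of 50 cells, and no other group was analysed here. All mice had received AAV2-CAG-tdT, a virus in which the broadly active CAG promoter drives the red protein tdTomato, into a brain ventricle. Live cells positive for tdTomato were collected from dissociated slices around the central canal to enrich for CSF-cNs, neurons in contact with the cerebrospinal fluid, and the age of the mice is not given in the sources used here.

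Complement is a cascade of proteins that tags cells and debris for removal. C1q, built from 3 kinds of chain, binds its targets and starts the classical pathway through the proteases C1r and C1s. C1s cleaves C4 and C2, which leads to cleavage of C3, and fragments of C3 and C5 act on receptors of myeloid cells. In the nervous system C1q is known to be made mainly by microglia, the resident macrophages, and complement is known for its part in the removal of synapses.

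The 4 libraries held 83007030 to 115479640 counts, so levels are given as CPM, counts scaled to a common library size, after TMM normalization, and lists of 4 values are in the order of mice 1, 2, 3 and 4. A count of 0 allowed up to 0.0278 to 0.0348 CPM (3 counts, counting error only). The labelled CSF-cNs were unevenly represented: their 8 markers summed to 20.3, 12.9, 942 and 846 CPM, with Pkd2l1 at 17.9, 0.193, 665 and 690.1 CPM and Gata3 without a count in mice 1 and 2. Not all 8 had this contrast: Tal1 was at 0.898, 10.3, 10.8 and 14.8 CPM and made up most of the sum in mouse 2. The 10 microglia markers summed to 56876, 57228, 35296 and 49417 CPM. All 10 were lowest in mouse 3, as were 2141 of the 6795 genes that the test below called above 10 CPM. In such pooled RNA, fewer cells of a type and less RNA per cell cannot be told apart. All 4 libraries are therefore described, and the counts of called complement genes are also given without mice 1 and 2.

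Of the 9 genes, 7 were abundant, and the 2 genes of the cascade's central components, C3 and C4b, were not separated from 10 CPM. edgeR's quasi-likelihood test, fitted to all 18522 genes with at least 10 counts in total, asked whether a level differed from 10 CPM. It called 7 of the 9 genes above 10 CPM, where 36.7% of all tested genes were called above. The 7 were the 3 C1q genes, both anaphylatoxin receptor genes and both integrin genes. All 7 stood above 10 CPM in every library, where 6456 of all 6795 genes called above 10 CPM reached that level too. The count of called genes among the 9 was again 7 without mice 1 and 2. It was 7 against a level of 100 CPM, where 5.82% of tested genes were called above and 48.8% below. Each of the 7 was called by limma-voom (35.9% of tested genes called above) and DESeq2 (34.0%) too. The median log2 level relative to 10 CPM was 5.30 over the 9 genes and -0.07 over all tested genes.

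**Figure D1:**
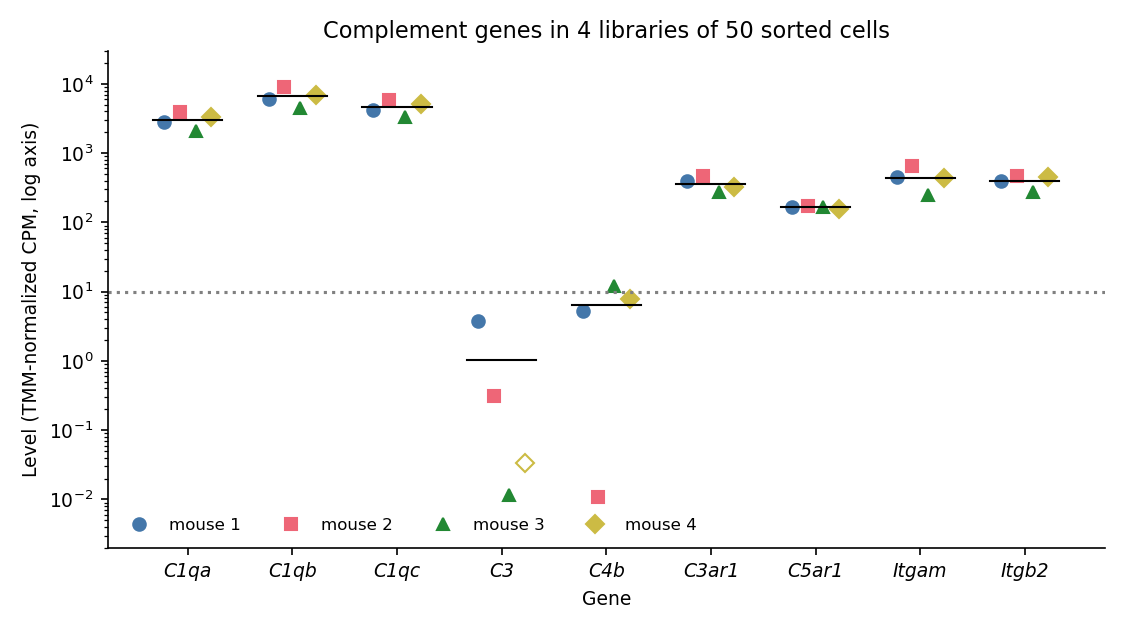
Level of each complement gene (TMM-normalized CPM, log axis) in each of the 4 libraries, with the mean over mice as a bar and the 10 CPM level as a dotted line. The open symbol for C3 in mouse 4 marks a count of 0, drawn at its limit of 3 counts. The C1q genes sit between 2097 and 9032 CPM, while C3 runs from 0 to 3.82 CPM and C4b from 0.0107 to 12.2 CPM.

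The C1q genes had the highest levels of the 9 per kilobase of exonic length. C1qb, which codes for the B chain, had 6106, 9032, 4540 and 6818 CPM (mean 6624 ± 1866, SD, n = 4). The C chain gene C1qc had 4175, 5875, 3311 and 5072 CPM (4608 ± 1109). The A chain gene C1qa had 2798, 3883, 2097 and 3285 CPM (3015 ± 756). Each was highest in mouse 2 and lowest in mouse 3. Together they made up 1.22%, 1.84%, 1.03% and 1.59% of all counts, and 90.3% to 91.7% of the counts of the 9 genes. The log2 levels relative to 10 CPM were 9.37 (SE 0.04) for C1qb, 8.85 (SE 0.04) for C1qc and 8.24 (SE 0.05) for C1qa. The edgeR adjusted p was at most 7.6e-10. These edgeR SEs were worked back from the test and overstate the precision. In the same order of genes, limma-voom gave SEs of 0.15, 0.14 and 0.15, and DESeq2 0.17, 0.15 and 0.16.

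The proportions of the chain genes' counts moved little between mice, although their sum moved from 9948 CPM in mouse 3 to 18789.5 CPM in mouse 2. C1qb held 46.7%, 48.1%, 45.6% and 44.9% of the C1q counts. C1qc held 31.9%, 31.3%, 33.3% and 33.4%. C1qa held 21.4%, 20.7%, 21.1% and 21.6%. The shares are of counts, which grow with transcript length, and are no measure of the chains' protein. The 3 genes lie side by side within 18.7 kb of the minus strand in GENCODE M21 on GRCm38, with C1qb at chr4:136880129-136886187, C1qc at chr4:136889804-136893065 and C1qa at chr4:136895917-136898803.

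The stretches before the starts of C1qb and C1qc are shown beside that of C3 and of Itgam, an integrin gene of the same abundant group. For C1qa no window was found. Any link between these stretches and the levels was not tested. RefSeq promoter windows (GRCm38.p6) were found for 6 of the 9 genes. The 250 bases before the RefSeq start were searched for GAGGAA, a core of sites bound by the myeloid factor PU.1, on both strands (TTCCTC on the other). It was present for C1qb, C1qc and Itgam, 3 of the 6, and in 23.3% of all 32851 windows. A match is a description of the letters, not a site. Capitals mark matches, the strand shown is that of the gene, and a stretch ends before the first annotated start in RefSeq or GENCODE. They cover chr4:136886201-136886450 (minus strand) for C1qb, chr4:136893066-136893164 (minus strand) for C1qc, chr7:128062390-128062639 (plus strand) for Itgam and chr17:57228137-57228386 (minus strand) for C3.
C1qb: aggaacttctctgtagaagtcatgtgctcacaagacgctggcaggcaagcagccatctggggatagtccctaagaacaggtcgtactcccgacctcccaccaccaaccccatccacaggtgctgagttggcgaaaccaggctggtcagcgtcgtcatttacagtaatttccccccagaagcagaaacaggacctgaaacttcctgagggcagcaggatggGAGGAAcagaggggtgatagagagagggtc
C1qc: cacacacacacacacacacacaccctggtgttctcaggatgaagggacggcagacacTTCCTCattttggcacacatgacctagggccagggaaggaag
Itgam: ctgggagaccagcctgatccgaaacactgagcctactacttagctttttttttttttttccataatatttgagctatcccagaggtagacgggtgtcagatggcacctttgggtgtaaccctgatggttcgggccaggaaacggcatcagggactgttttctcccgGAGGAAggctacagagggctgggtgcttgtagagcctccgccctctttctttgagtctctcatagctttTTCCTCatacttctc
C3: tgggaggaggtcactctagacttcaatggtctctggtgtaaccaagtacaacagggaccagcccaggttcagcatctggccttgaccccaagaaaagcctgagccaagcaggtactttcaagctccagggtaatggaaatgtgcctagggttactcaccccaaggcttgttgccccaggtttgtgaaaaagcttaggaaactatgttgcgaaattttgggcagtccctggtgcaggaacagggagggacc
The match began 30 bases before the RefSeq start in C1qb and 193 in C1qc, and 84 and 15 bases before it in Itgam. C3, C3ar1 and C5ar1 had none of these letters in the window. C3ar1, whose stretch is not shown, was highest in mouse 2 and lowest in mouse 3, as the C1q genes were. For C5ar1 only 48 of the bases searched lay before the GENCODE start, and for C1qc 99.

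C3, the central component on which the pathways converge, was present in some libraries and nearly without counts in others. It had 413, 29, 1 and 0 counts, or 3.82, 0.310, 0.0116 and 0 CPM (1.04 ± 1.86 CPM, SD, n = 4). The 95% Clopper-Pearson interval was 3.46 to 4.21 CPM in mouse 1 and 0.208 to 0.446 CPM in mouse 2, so these libraries differed by more than counting error, while mice 3 and 4 were within what a count of 0 allows. Mouse 1 decided the mean, which was 0.107 CPM without it. The gene is at chr17:57203970-57228136 (minus strand).

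C4b, which codes for the C4 protein cleaved early in the classical pathway, had 573, 1, 1056 and 694 counts. These were 5.30, 0.0107, 12.2 and 7.73 CPM (6.32 ± 5.10 CPM, SD, n = 4). Mouse 2 had a single count, within what 0 allows, against an interval of 4.88 to 5.76 CPM in mouse 1, the next lowest. C4b was thus lowest in the library in which C1q was highest. Without mouse 2 its mean was 8.43 CPM. The gene is at chr17:34728380-34743882 (minus strand). Its near-identical copy C4a had no count in any library, nor had the further rows C4b_1, C4b_2 and C4b_3. The C4b values are uncertain because the authors' counting could assign reads shared by C4a and C4b to either gene.

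Neither C3 nor C4b was separated from 10 CPM by edgeR (log2 -3.27, SE 2.45, adjusted p = 0.32, and log2 -0.66, SE 1.18, adjusted p = 0.65), and edgeR called 0.664% of tested genes below that level. limma-voom, which averages logarithms, placed C3 below 10 CPM (log2 -6.60, adjusted p = 0.018), as it did 33.3% of tested genes. Over the alternatives tested against 10 CPM the edgeR adjusted p of C3 ran from 0.24 to 0.46, and against 100 CPM it was 0.096. DESeq2, which placed 11.1% of tested genes below, gave no adjusted p for C3 and did not call C4b.

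Other cell types also differed between the libraries. The 10 oligodendrocyte markers (8 of 10 called above 10 CPM by edgeR and 5 by limma-voom, beside 36.7% and 35.9% of all tested genes) summed to 15465, 236, 19788 and 455 CPM. The 10 astrocyte markers (3 of 10 called by edgeR and 2 by limma-voom) summed to 1254, 161, 1349 and 299 CPM, most of it Aldoc, S100b and Slc1a3. Aldoc (834, 11.6, 847 and 118 CPM) and S100b were highest in mice 1 and 3, as the oligodendrocyte sum was. limma-voom placed 6 of the 10 astrocyte markers below 10 CPM, against 33.3% of all tested genes, and Aldh1l1 and Slc1a2 reached at most 0.290 CPM. The 6 fibroblast markers (1 of 6 called by edgeR and 0 by limma-voom) summed to 8.37, 0.107, 995 and 109 CPM, nearly all of it Dcn in mice 3 and 4, with Col1a1, Col3a1 and Pdgfra at 0. The 7 pan-neuronal markers summed to 121, 72.8, 1021 and 384 CPM and the 5 endothelial markers to 18.1, 12.2, 14.2 and 23.1 CPM. The endothelial sum was mostly Pecam1 (18.1, 12.1, 9.05 and 14.6 CPM), which was itself lowest in mouse 3. Of the 5 endothelial markers 2 were tested and edgeR called 0 above 10 CPM. Like C4b, the sums of these 5 lists and of the CSF-cN markers were lowest in mouse 2. The CSF-cN, pan-neuronal and fibroblast sums each had the order of C4b over all 4 mice. Within the CSF-cN list Tal1, most of the sum in mouse 2, was lowest in mouse 1 instead. The part of any of these cell types in the levels of C4b and C3 was not tested. Of 9119 other genes whose mean reached 10 CPM, the 3 whose pattern over the 4 mice was closest to C4b were the carboxypeptidase gene Cpe (315, 5.62, 588 and 362 CPM), Fam216a and Rora, a nuclear receptor gene, with a root mean square difference of centred log2 levels of 0.13, 0.21 and 0.22. For C3 the closest, Zbed5, differed by 0.65.

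The receptors of the anaphylatoxins, the small fragments released from C3 and C5, were both abundant, C3ar1 about as variable as C1q and C5ar1 nearly constant. C3ar1, the receptor of the C3 fragment, had 389, 472, 270.4 and 322 CPM (363 ± 87.1, SD, n = 4; log2 level 5.18, SE 0.08, edgeR adjusted p = 3.2e-08). C5ar1, the receptor of the C5 fragment, had 166, 169.8, 166 and 156 CPM (164 ± 5.77; log2 level 4.04, SE 0.08, adjusted p = 6.6e-08). C3ar1 was highest in mouse 2 and lowest in mouse 3, as the C1q genes were, and C5ar1 was nearly level. C3ar1 is at chr6:122847138-122856161 and C5ar1 at chr7:16246743-16259540 (both minus strand). The second C5a receptor gene, C5ar2, was at 19.3, 15.5, 4.28 and 8.01 CPM and was not separated from 10 CPM (adjusted p = 0.68).

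C5ar1 had the least spread of the 9 genes. The SD of its log2(CPM + 0.1) over mice was 0.05, smaller than that of all but 0.142% of the 9126 genes whose mean reached 10 CPM, and 0.05 and 0.06 with RLE and total-count scaling. Its 2 sequencing runs of a mouse differed by up to 0.06 on the log2 scale, which is more than this SD. As a share of the counts of the microglia markers, C5ar1 was at 0.292%, 0.297%, 0.470% and 0.316%, so that relative to them it was highest in mouse 3. Scaled to these markers its SD was 0.32.

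**Figure D2:**
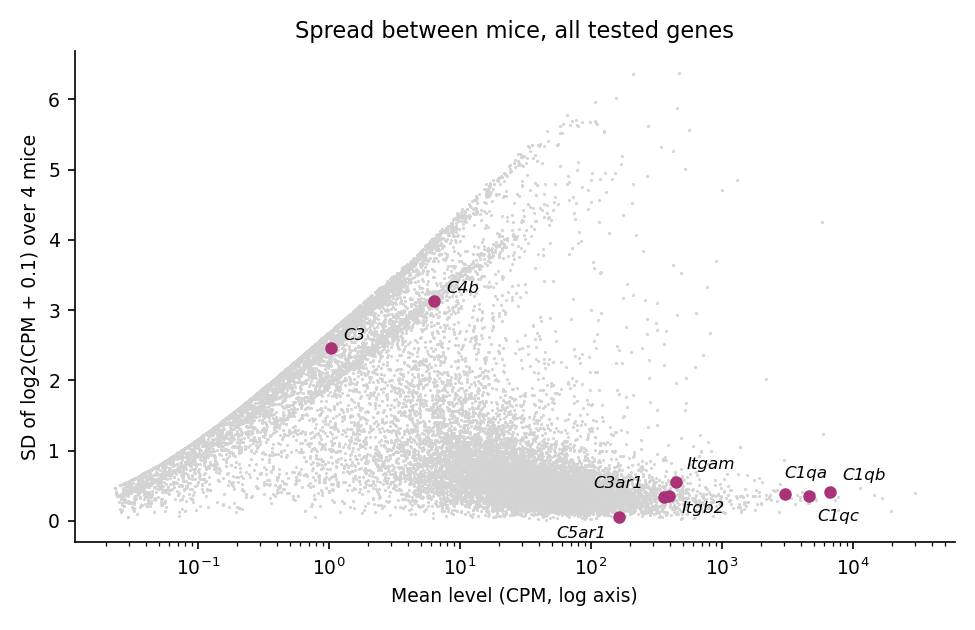
SD of log2(CPM + 0.1) over the 4 mice against mean level (CPM, log axis), with each tested gene in grey and the 9 complement genes in colour. C5ar1 lies at the lower edge (0.05), the other called genes between 0.35 and 0.56, and C3 and C4b at 2.46 and 3.13.

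Itgam and Itgb2 code for the alpha and beta chains of complement receptor 3, the integrin CD11b/CD18 of myeloid cells that binds a fragment of C3. Itgam had 445, 643, 251 and 435 CPM (444 ± 160, SD, n = 4; log2 level 5.47, SE 0.10, edgeR adjusted p = 5.9e-08). Itgb2 had 399.7, 463, 270.1 and 446 CPM (395 ± 87.2; log2 level 5.30, SE 0.08, adjusted p = 2.6e-08). Both were highest in mouse 2 and lowest in mouse 3, and Itgam varied more (2.56-fold between these mice, against 1.71-fold for Itgb2). Of the other alpha chains that pair with Itgb2, Itgax was at 8.37, 19.9, 1.09 and 10.8 CPM, Itgad reached 1.29 CPM in mouse 3, and Itgal had no count. Itgam is at chr7:128062640-128118491 and Itgb2 at chr10:77530252-77565708 (both plus strand). The annotated gene Gm49368 shares 3450 exonic bases on the same strand with Itgam, so the source of reads there is uncertain.

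Of the 7 called genes, 6 shared their highest and lowest libraries with most of the microglia markers. All 7 were highest in mouse 2, and 6 of 7 were also lowest in mouse 3, the exception being C5ar1. Of all 6795 genes called above 10 CPM, 2125 were highest in mouse 2 and 2141 were lowest in mouse 3. Both held for 6 of the 10 microglia markers and for 16.0% of all 6795 genes. Scaling to the microglia markers made the SD smaller for 6 of the 7 genes, for example from 0.38 to 0.21 for C1qa and from 0.36 to 0.15 for Itgb2, and for 34.0% of all called genes. In mouse 1 the C1q genes were low against the markers: C1qb was 10.7% of the marker counts there, against 15.8%, 12.9% and 13.8% in mice 2, 3 and 4. The 10 genes of the response to dissociation summed to 14452, 11752, 5619.5 and 10019 CPM, also lowest in mouse 3, and their part was not tested.

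**Figure D3:**
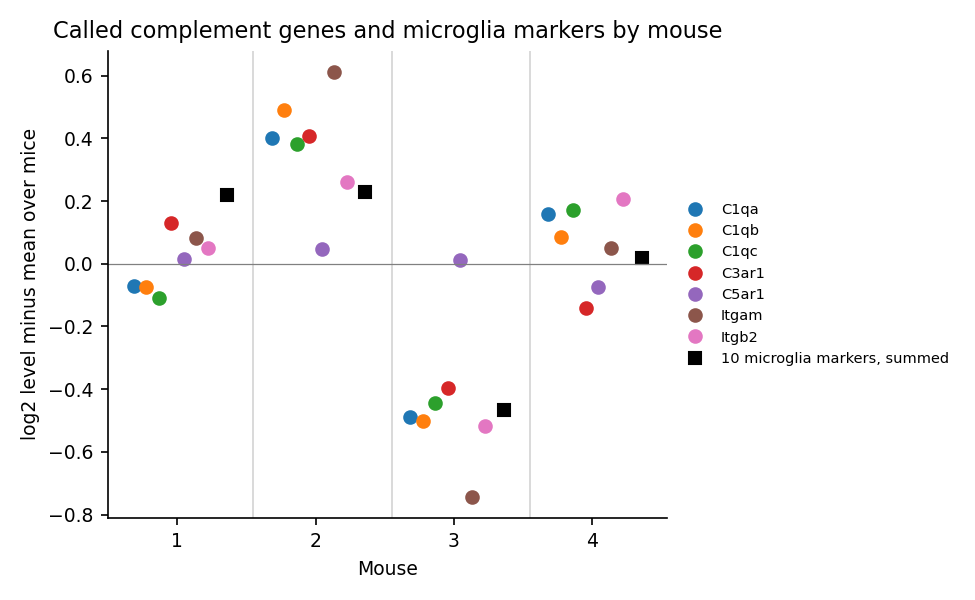
log2 level of the 7 called complement genes, minus the mean of each over mice, in each of the 4 mice, with the summed 10 microglia markers as black squares. In mouse 3 the other 6 genes lie between -0.74 and -0.40, while C5ar1 is at 0.01.

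Macrophages at the borders of the nervous system and blood leukocytes can carry the same receptors, so their markers were examined. Of 6 border macrophage markers 5 were tested and edgeR called 1 above 10 CPM, Mrc1 (38.2, 16.4, 36.6 and 30.3 CPM), beside 36.7% of all tested genes. Not called were F13a1 (19.0, 9.77, 2.44 and 14.4 CPM), Pf4 (up to 17.6 CPM), Cbr2 (up to 10.6 CPM) and Cd163 (up to 7.93 CPM), and Lyve1 had no count. The list summed to 76.5, 45.5, 43.9 and 62.5 CPM. The neutrophil genes S100a8, S100a9, Ly6g, Retnlg and Camp had no count in any library, and the 8 monocyte and neutrophil markers summed to at most 2.99 CPM. Among 6 lymphocyte markers, Cd3d alone had counts, at up to 0.259 CPM. Among 1808 other genes whose mean reached 100 CPM, the 5 closest in pattern to the C1q genes were Cyba, Tmem109, Rbm26, Ctsz and Tmem176a, with root mean square differences of 0.02 to 0.03 in centred log2 level.

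Levels were compared between genes per kilobase of exonic length, with coding length as an alternative. The order by mean CPM per kilobase was C1qb (6088 ± 1715, SD, n = 4), C1qa (2899 ± 727), C1qc (2386 ± 574), Itgb2 (129 ± 28.6), Itgam (88.3 ± 31.9), C3ar1 (84.4 ± 20.2), C5ar1 (64.0 ± 2.24), C4b (1.11 ± 0.895) and C3 (0.201 ± 0.362). Of the 36 pairs of genes, 32 had the same order in 4 of 4 mice. With 4 mice the exact two-sided sign-flip permutation test cannot go below p = 0.13, and no pair passed (adjusted p = 0.14 over 36 pairs for these 32). The neighbours that changed order between mice were Itgam and C3ar1 (mean log2 ratio 0.02 ± 0.26), C3ar1 and C5ar1 (0.37 ± 0.32) and C4b and C3 (3.87 ± 7.13), and Itgam and C5ar1 changed order too (0.39 ± 0.55).

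C1qb stood above C1qa by 1.06 ± 0.07 on the log2 scale of CPM per kilobase. The lead of C1qa over C1qc was small (0.28 ± 0.04) and depended on the length used: per coding length the log2 ratio was -0.61, with C1qc higher in 4 of 4 mice. The same happened to Itgb2 over C3ar1 (0.62 ± 0.23, and -0.58 per coding length), and Itgam fell below C3ar1 and C5ar1 on that scale. The order of these pairs therefore could not be settled.

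**Figure D4:**
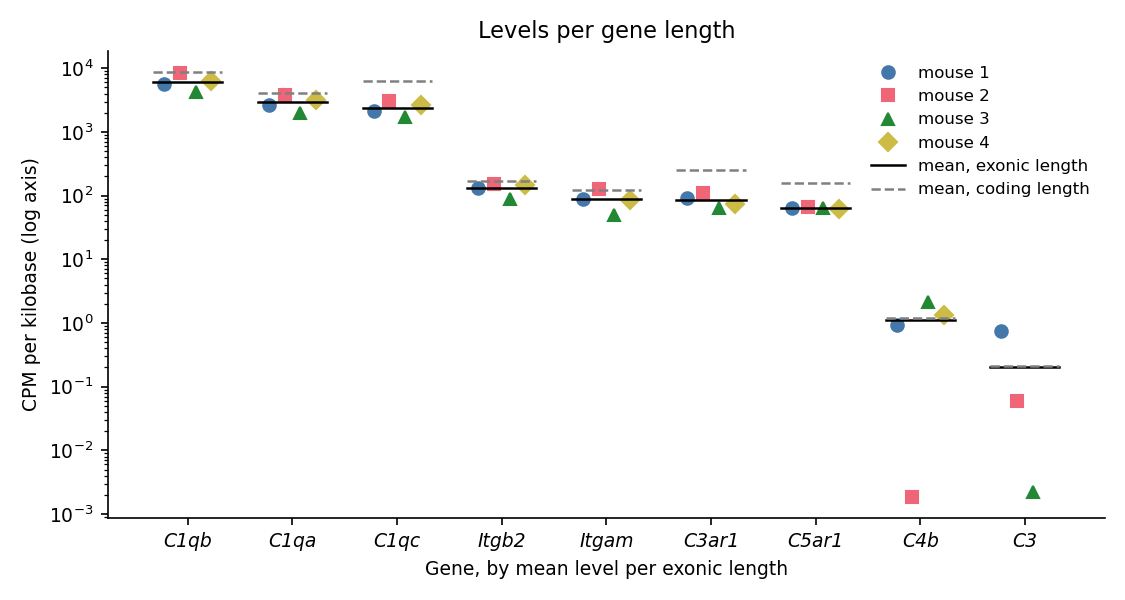
CPM per kilobase of exonic length (log axis) in each of the 4 libraries, with the means per exonic length (solid bar) and per coding length (dashed bar). The C1q genes lie at 1715 or more, the receptor genes between 50.0 and 152, and C3 and C4b at 2.15 or less, with no point for C3 in mouse 4, which had no count.

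The rest of the pathway was read from a list of 50 other complement genes. edgeR called 6 of the 28 tested genes of the list above 10 CPM, where 36.7% of all tested genes were called, and 0 below (also 0 below at an unadjusted p under 0.05). limma-voom placed 13 of the 28 below, against 33.3% of all tested genes. DESeq2 placed 3 below, against 11.1%, and gave no adjusted p for 13 of the 28. Of the 50, 19 genes had no count in any library. The 10 counts needed for testing were reached by 28 of the 50 genes and by 18522 of all 42458 rows. The count of called genes was again 6 without mice 1 and 2. The median log2 level of the tested genes of the list was -1.61. The 6 called genes were listed as regulators or receptors, and no gene listed under the activation or terminal steps was among them.

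Of the 15 classical and lectin pathway genes, 7 were tested and 0 were called by edgeR (0 at an unadjusted p under 0.05) or above 10 CPM by limma-voom or DESeq2. edgeR called 36.7% of all tested genes above. limma-voom placed 5 of the 7 below, against 33.3% of all tested genes, and DESeq2 gave no adjusted p for 6. C1ra, a gene of the C1r protease, was at 2.99, 9.26, 0 and 0 CPM, and the C1s gene C1s1 had no count. Masp1, a protease of the lectin pathway, was at 0.0185, 3.53, 2.58 and 17.7 CPM. C2 had counts in mouse 3 alone (2.98 CPM). Of the alternative pathway, Cfb, the gene of factor B, was at 0.00925, 4.53, 0 and 0 CPM and Cfd and Cfp had no count. Of 7 terminal pathway genes, C8g was at 0.00925, 5.39, 3.84 and 4.71 CPM, the C5 gene Hc had 1 count in mouse 2, and the other 5 had none. edgeR called neither Cfb nor C8g, at an unadjusted p under 0.05 or after adjustment, and limma-voom placed Cfb below 10 CPM (adjusted p = 0.0078).

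Of the genes listed as regulators of the cascade, edgeR called 2 of 4 tested soluble and 2 of 9 tested membrane regulators above 10 CPM, beside 36.7% of all tested genes. Not called were Serping1 and Vtn among the soluble and Cd46, Cd55, Cd59a, Cd59b, Csmd1, Csmd2 and Susd4 among the membrane regulators. Cr1l, which codes for the membrane inhibitor Crry, had 197, 210.2, 132 and 183 CPM (181 ± 34.1, SD, n = 4; log2 level 4.18, SE 0.09, edgeR adjusted p = 1.2e-07). Csmd3, of a family with complement control protein domains, had 551, 549.8, 234 and 379 CPM. Like 6 of the 9 genes, both were lowest in mouse 3. The clusterin gene Clu (10.4, 2.76, 74.2 and 70.0 CPM) was called by edgeR (log2 level 1.98, SE 0.55, adjusted p = 0.030), a call lost without mouse 3 (adjusted p = 0.21), without mouse 4 (0.20) and under limma-voom (0.28). It was higher in mice 3 and 4, where the sums of the CSF-cN, pan-neuronal, fibroblast and ependymal markers (the last 0.00925, 0.503, 12.4 and 63.8 CPM) were also higher than in mice 1 and 2. Their part was not tested. Cd55, an inhibitor of the convertases, was at 34.0, 0.0214, 18.0 and 15.7 CPM, and edgeR called it without mouse 2 (adjusted p = 0.034) but not with all mice (0.51).

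Of 9 further receptor genes, 6 were tested and 2 were called above 10 CPM by edgeR, a share near the 36.7% of all tested genes. They were Lrp1 (94.5, 204, 70.3 and 141 CPM) and Calr (476, 676, 384 and 666 CPM). Both proteins have many functions besides the binding of C1q. Cr2, a complement receptor of B cells, reached 0.0812 CPM in mouse 3, and Vsig4, a macrophage receptor of C3 fragments, had no count.

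**Figure D5:**
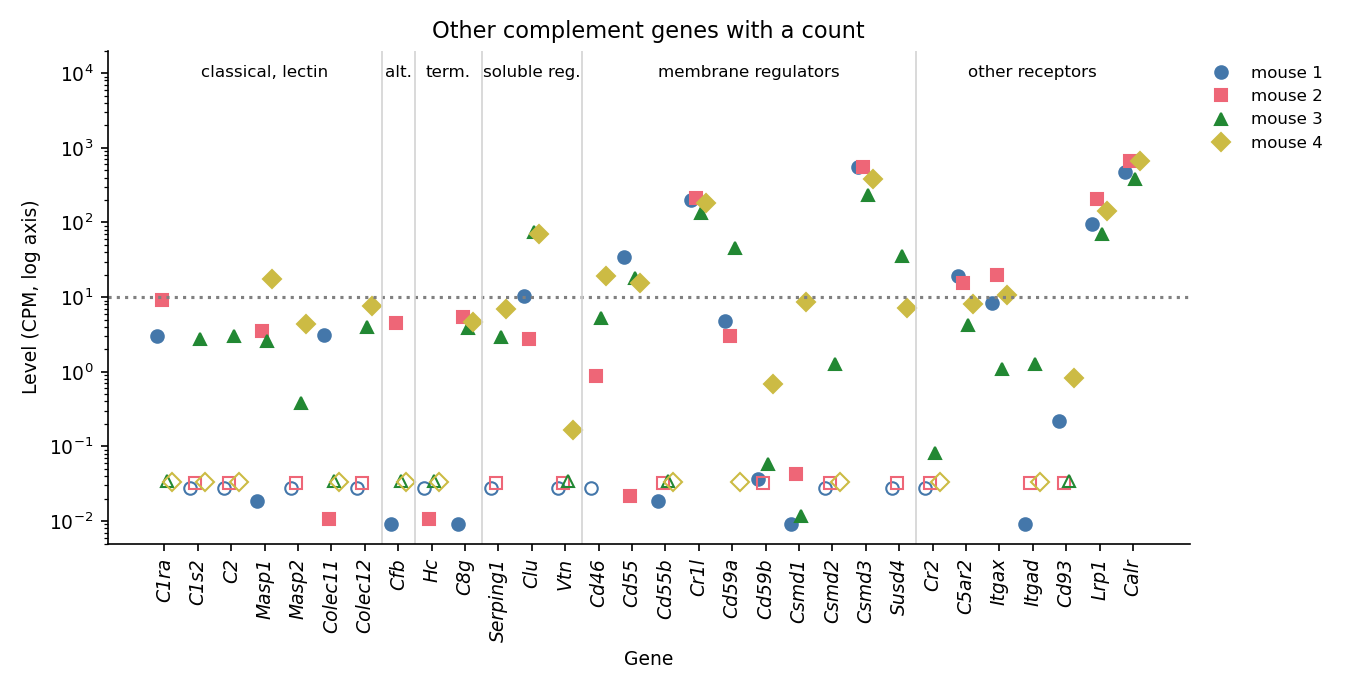
Level (CPM, log axis) in each of the 4 libraries of the other complement genes described with a count in any library, by role, with the 10 CPM level as a dotted line. Open symbols mark a count of 0, drawn at the limit of 3 counts; of the genes shown, Cr1l, Csmd3, Lrp1 and Calr are above 10 CPM in all 4 libraries.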

How the data were processed

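The tables used were both deposited by the authors: raw counts in 42458 gene rows, in a pair of columns per mouse, and log2 values, 1 column per mouse. The tools named in the submitters' processing notes are STAR, RSEM, DESeq2, Trim Galore and FastQC, and the build is mm10. For versions, settings and annotation: not given in the sources used here. Per the labels' protocols, complementary DNA came from SMART-Seq v4 with 11 PCR cycles and libraries from Nextera XT. No use of strand or molecular identifiers is stated, so intervals cover counting error only. The 2 columns of a mouse were taken as repeat runs and summed, so n = 4. From the values, the deposited log2 table equals log2(x + 1), where x is the summed count over a size factor. It was not used further, since its scaling enters as the RLE alternative.

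CPM used edgeR's TMM factors. Levels were tested against 10 CPM with an intercept-only quasi-likelihood F test computed from the deviances of edgeR 4.0.16 (R 4.3.3), on genes with at least 10 counts in total, with Benjamini-Hochberg adjustment over all of them and a threshold of 0.05. This F test was tested on simulated data. The SEs given with edgeR levels were worked back from its statistic. They depend on the reference level (for C1qb 0.04 against 10 CPM and 0.08 against 100 CPM) and are not SEs of a mean over mice. For the 7 called complement genes limma-voom and DESeq2 gave larger SEs, and for C3 smaller ones. limma 3.58.1 (voom) and DESeq2 1.42.0 were alternatives. Exonic and coding lengths are unions over GENCODE M21 on GRCm38, the assembly of mm10. Ratios between genes had 0.5 counts added. Python 3.11.15 with scipy 1.17.1 was used otherwise.

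1 gene of the pathway list, included in its counts, is not reported here. The genes and lists were chosen with earlier results of these data known. Named were the 9 genes, the other called genes of each role of the pathway list (where none was called, the 2 highest), up to 3 genes of a marker list, and the genes of closest pattern. Other pathway and marker genes, among them C5ar2, Itgax, Itgad, Itgal, C1s1, C2, Cd55, Cr2 and Vsig4, and markers without counts were named after their values were seen.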

Additional observations from a re-analysis of the deposited data

Results flagged for a closer look

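In 3 of 20 genes checked, 1 library stood apart from the other 3 (gap over range above Dixon's 95% value for 4 samples). Chance exceeds that value in about 1 of 20 groups of normally distributed values. The flagged genes had low CPM with counts of 0 among them, so the 3 of 20 cannot be set against that rate. C3 was at 3.82 CPM in mouse 1, against 0 to 0.310 CPM in the others. Cfb was at 4.53 CPM in mouse 2, against 0 to 0.00925 CPM. Hc had 0.0107 CPM in mouse 2, a single count, against 0 elsewhere; any count beside 3 values of 0 passes this rule, and 1 count is within what 0 allows.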

How the results depend on the processing

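The count of 7 called complement genes was the same under RLE and total-count scaling, without a filter, with DESeq2, with limma-voom, with either run, against 100 CPM, leaving out any 1 mouse, and without mice 1 and 2. The count of other pathway genes ran from 4 (against 100 CPM) to 7. Pairs of genes with the same order in every mouse numbered 32 to 34. Coding length, chosen after seeing the data because no protein table was at hand for the planned length, gave 33 and turned the mean of 4 pairs. Scaled to the microglia markers, the SD of C5ar1 moved from 0.05 to 0.32, by construction a change of the reference. Without mice 1 and 2, also chosen after seeing the data, the uncalled log2 levels of C4b and Masp1 turned sign, to 0.0599 and 0.0825. limma-voom placed C3 and 13 pathway genes below 10 CPM, among them C1ra, Cfb, C2 and Itgad, none of which edgeR called. The cause of these changes was not tested. No paired analysis was possible because the 4 libraries form a single group. C3 in mice 3 and 4 and C4b in mouse 2 had at most 1 count, within what a count of 0 allows at this depth.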
